A study of Mus musculus with 20 samples.

Results

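The 49 genes described here encode the mRNA decay machinery, measured in the mouse motor neuron-like line NSC-34, and were taken as a fixed list of symbols among the 14924 genes of the deposited RNA-Seq and POL-Seq table. All 49 symbols were found there, 40 had counted 3′ ends and 5 carried a HuD binding window. They were placed in 8 groups by role: the CCR4-NOT deadenylase (10 genes), other deadenylases (3), decapping (7), 5′ to 3′ exonucleases (2), the LSM ring (7), the exosome (9), nonsense-mediated decay (7) and the BTG/TOB adaptors (4). HuD, also called ELAVL4, is a neuronal protein that binds U-rich elements in mRNA, and the study asked which RNAs it binds and what its induction does to them. Induced cells were Trex-HuD NSC-34 cells, stably transduced with a vector for tagged human HuD, and given Tetracycline at 2 μg/ml for 48 h before total RNA sequencing (RNA-Seq), polysomal RNA sequencing (POL-Seq) and 3′ end sequencing. RNA-Seq and POL-Seq had 2 HuD and 2 control libraries each, and 3′ end sequencing had 3 of each. Crosslinking and analysis of cDNAs (CRAC), which maps the sites of a tagged protein on RNA, was done on 3 libraries of Trex-HuD and 3 of control Trex cells, both given Tetracycline at 10 μg/ml for 24 h per the labels and the methods. The results text of the study names doxycycline for CRAC, at another dose and for another time, so the induction behind the CRAC reads is uncertain. For the inducible lines in general, the methods name doxycycline at 2 μg/ml, so the drug used in the other assays is uncertain too. What the controls of the other assays received is not given in the labels, and the induced protein is human HuD in a mouse line.

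Most mRNAs are destroyed in an ordered way. The poly(A) tail is first shortened by the PAN2-PAN3 and CCR4-NOT deadenylases, which BTG and TOB proteins can recruit, then the LSM ring binds the shortened end, the cap is removed by DCP2 and its cofactors, and XRN1 degrades the body from the 5′ end. The exosome degrades RNA from the 3′ end, and UPF and SMG proteins direct transcripts with premature stop codons into the same enzymes. Proteins of the ELAV family are known for stabilising mRNAs that carry AU-rich elements.

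RNA-Seq and POL-Seq libraries held 21296012 to 36284728 counted reads. The 3′ end libraries held 12986862 to 15751036 end counts, in which a read near several listed ends is counted at each. The members took 0.426% to 0.450% of the RNA-Seq and POL-Seq counts, and the lowest member count in a library was 272, for Btg2. Elavl4 was measured at 78.3 and 97.4 CPM, counts scaled to a common library size, in total RNA of control cells and at 236.6 and 212 CPM in HuD cells, a log2 change of 1.35 with an adjusted p of 0.0866 in edgeR. Its 3′ end counts, at 38.5 to 78.1 CPM in control and 31.4 to 54.6 CPM in HuD cells, do not check the induction, since they are read at annotated ends of the mouse gene. Of the 6 motor neuron markers looked up, 5 were in the count table, Mnx1 being the exception, and all 7 neuron markers were. Polysomal control replicate 2, with the fewest counts of the 8 libraries, stood apart by exon length: over all genes its difference from polysomal control replicate 1 rose with exon length (Spearman 0.34 over 14842 genes), against 0.02 between the polysomal HuD libraries, 0.22 between the total control libraries and -0.12 between the total HuD libraries. By the chi-square of counts per degree of freedom, the total HuD pair differed about as much (39.6) as the polysomal control pair (38.9). The total control pair stood at 15.6 and the polysomal HuD pair at 7.91. Polysomal control replicate 2 held the lowest of the 8 values for all 7 LSM ring genes and the highest for 24 of the 49 members, so polysomal changes of named members are given below also without it. The same count over all genes was not made. Among the 3′ end libraries, those numbered 2 differed from the others in both groups, with Lsm2 for example at 328 and 303 CPM, against 141 to 216 CPM in the other 4.

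In control cells the decay genes were expressed at widely different levels. By FPKM the LSM ring was highest as a group and the exonuclease Xrn1 lowest as a gene. Levels between genes are given as FPKM, computed as CPM per kilobase of exons, in total RNA of control cells (mean ± SD, n = 2). The length was that of all annotated exons of a gene together, used here or not. Ranks and ratios by FPKM therefore depend in part on the annotation. The median over the members was 13.3 FPKM, against 5.57 FPKM over all 14842 genes tested with an exon length. By role the medians were 49.5 FPKM for the LSM ring, 23.3 for the exosome, 17.95 for CCR4-NOT, 11.7 for decapping, 8.47 for the other deadenylases, 8.26 for the exonucleases, 7.23 for BTG/TOB and 6.72 for nonsense-mediated decay.

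Lsm4, a subunit of both the cytoplasmic and the nuclear LSM ring, had the highest level of all members at 218 ± 17.0 FPKM. Lsm1, the subunit that defines the cytoplasmic decay ring, had the lowest level of its group at 19.4 ± 0.23 FPKM. By mean CPM, which is not divided by length, Lsm5 (52.3) lay below Lsm1 (59.9). Within CCR4-NOT, the catalytic subunit Cnot6 was highest at 60.2 ± 4.59 FPKM and the ubiquitin ligase Cnot4 lowest at 2.99 ± 0.04 FPKM. Among the other deadenylases, the catalytic Pan2 stood at 9.84 ± 0.24 FPKM and its partner Pan3 at 4.70 ± 0.26 FPKM. The scavenger enzyme Dcps, which clears cap remnants left by the exosome, led the decapping group at 36.7 ± 2.64 FPKM, and the DCP2 activator Dcp1b was lowest at 3.26 ± 0.15 FPKM. The nuclear exonuclease Xrn2 was at 14.5 ± 1.61 FPKM and the cytoplasmic Xrn1 at 2.03 ± 0.12 FPKM, with no overlap between their libraries. In the exosome, Exosc2 was highest at 66.9 ± 1.11 FPKM and Exosc5 lowest at 8.61 ± 0.75 FPKM, while by mean CPM Exosc3 (30.8) lay below Exosc5 (54.0). For nonsense-mediated decay, Smg5 led at 24.8 ± 0.17 FPKM and the endonuclease Smg6 was lowest at 3.29 ± 0.01 FPKM. Tob1 led the BTG/TOB adaptors at 13.3 ± 0.08 FPKM, and Tob2 was lowest at 4.64 ± 0.13 FPKM. The values of Lsm5 and Lsm7 are uncertain, because 21.0% and 14.3% of their 50-base words also occur in other genes, Gm7846 and Gm10146 being the nearest copies in the count table.

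**Figure D1:**
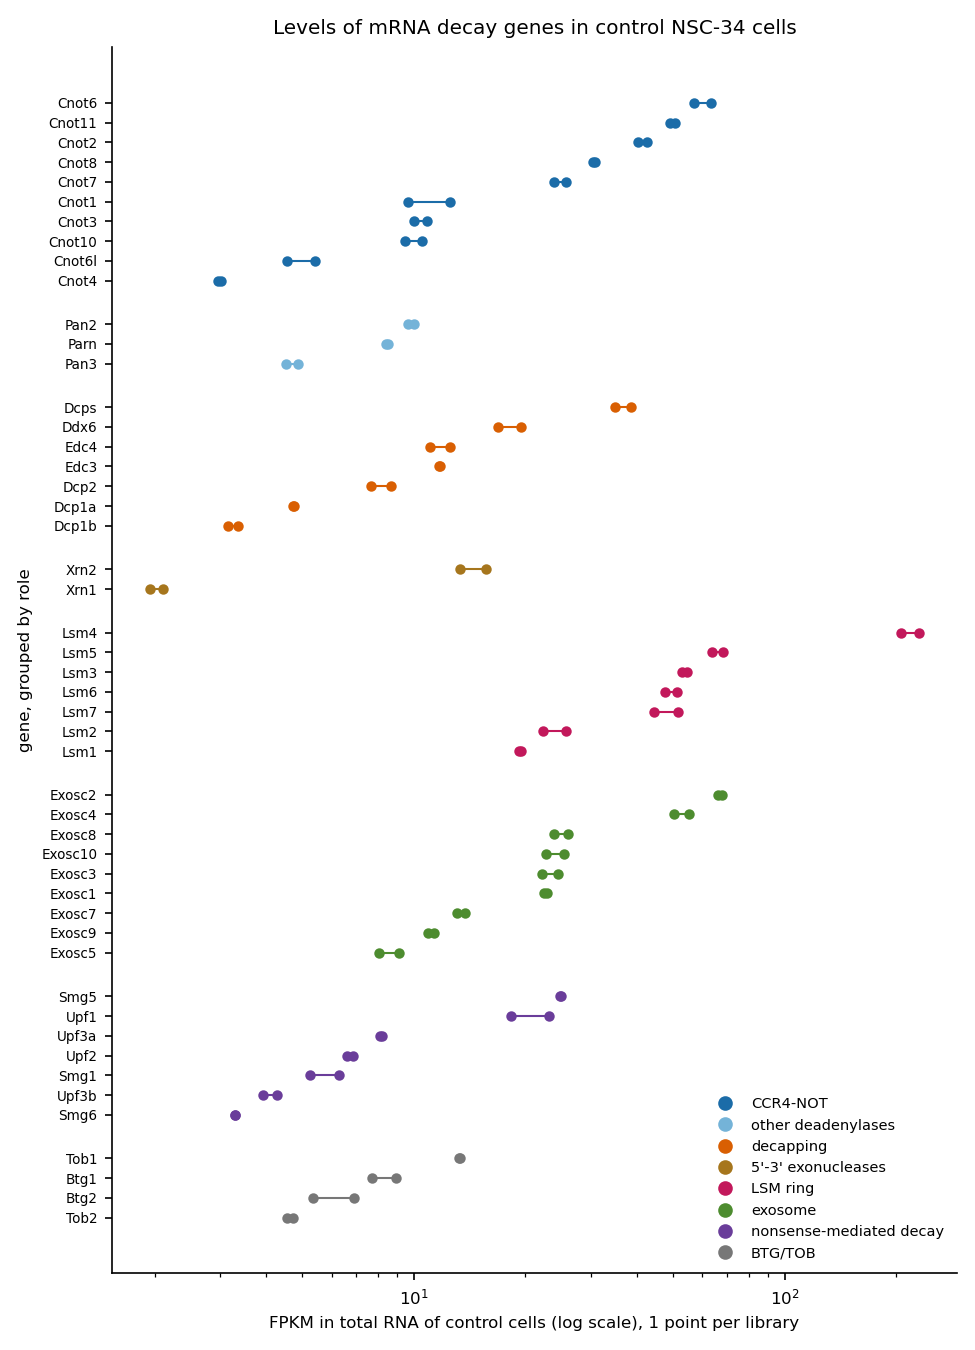
Level of each of the 49 decay genes in total RNA of control cells, in FPKM on a log axis, with 1 point for each of the 2 libraries joined by a line and genes grouped by role. Lsm4 lies furthest right at a mean of 218 FPKM and Xrn1 furthest left at 2.03 FPKM, and the libraries of a gene lie close together.

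Paralogs were not expressed at equal levels. Cnot6 exceeded Cnot6l, its closest relative among the deadenylase subunits, by a ratio of FPKM of 12.1 ± 0.59 in total RNA of control cells and of 10.5 ± 0.22 in HuD cells (n = 2 each), and the ratio lay between 9.49 and 12.5 in all 8 libraries. The other catalytic pair was nearly balanced by FPKM, with Cnot7 at 0.81 ± 0.04 of Cnot8 in control cells and 0.84 ± 0.07 in HuD cells. Not divided by length, Cnot7 was at a mean of 144 CPM and Cnot8 at 80.7 CPM in total RNA of control cells. By FPKM, Dcp1a stood at 1.46 ± 0.08 of Dcp1b and Btg1 at 1.37 ± 0.11 of Btg2 in control cells. Upf3a stood at 2.00 ± 0.14 of Upf3b and Tob1 at 2.87 ± 0.10 of Tob2.

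HuD was crosslinked to the mRNAs of 5 of the 49 decay genes, and Cnot6 took most of the reads. In these data a binding window is a stretch of 7 nt that the authors kept after pooling the replicates, with at least 6 reads and 3 reads carrying a deletion, the mark that reverse transcription leaves at a crosslinked base. The authors also required its sequence to score above a threshold against a matrix of base weights built from their strongest sites. Of the members, 10.2% had such a window, against 9.9% of the 12953 protein coding genes in the count table. Windows lay on 2 of 10 CCR4-NOT genes (Cnot6 and Cnot7) and on 3 of 7 LSM ring genes (Lsm2, Lsm5 and Lsm6), and on none of the 32 members of the other 6 groups. All 14 windows lay in 3′ UTRs. They summed to 914 reads in HuD cells and to 0 in control cells, control reads having been penalised when the windows were selected. Since replicates were pooled by the authors, CRAC values have no replicate error. Reads were not scaled for transcript level, and Cnot6 also had the highest RNA-Seq or POL-Seq count of any member in a library. By FPKM in total RNA of control cells, Lsm5 ranked 3, Cnot6 4, Lsm6 8, Cnot7 15 and Lsm2 17 among the 49 members. Whether the level of a member decides if a window is found was not tested.

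Cnot6, at chr11:49671503-49712723 of GRCm38 on the minus strand, held 8 windows with 738 reads and 65 deletions. That was 80.7% of the reads on members and 61.3% of their 106 deletions. Reads are summed over windows, so a read that spans 2 windows is counted in each. No error is given for this share, since the summed reads are not separate observations. Among the 1304 protein coding genes with a window, Cnot6 ranked 42 by reads and 24 by number of windows. Cnot7, on the minus strand of chromosome 8, had 2 windows with 66 reads and 14 deletions, and Lsm6, on the same chromosome and strand, had 2 with 33 reads and 12 deletions. Single windows were found on Lsm5 (41 reads, 5 deletions) and on Lsm2 (36 reads, 10 deletions). Only windows on Cnot6, 3 in number, had a combined p-value of the authors under 0.05, and 3 of the 14 windows is 21.4%, close to the 20.9% over all 2598 windows on protein coding genes.

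Sequences around 8 windows are printed because they show what HuD was crosslinked to on the most covered member and on each of the other 4. The window is in capitals, with 11 nt on either side in lower case, 5′ to 3′ on the mRNA strand, and the number after the gene is the distance in nt from the stop codon.
Cnot6 +644: ccuuuuguacuACUUUAUuuuuaaauuga
Cnot6 +671: gagaacauuacUCUUUAAauguaaguuug
Cnot6 +683: cuuuaaauguaAGUUUGCuuagaccuugg
Cnot6 +2810: uuggugguaauUAUUUAUgcuuugagaau
Cnot7 +812: uugaucggcuuCCUUUUAcuccaucacuu
Lsm2 +115: guuuuguuaauGAUUUUUuuuuuuucuuu
Lsm5 +78: uaaagggaaacUCUUUGAagauauacauc
Lsm6 +104: ugguggggguuUGUUUGUuuguuuguuua
They lie, in this order, at chr11:49674546-49674552, chr11:49674519-49674525, chr11:49674507-49674513, chr11:49672380-49672386, chr8:40493172-40493178, chr17:34985654-34985660, chr6:56701176-56701182 and chr8:78808104-78808110 of GRCm38, on the minus strand except for Lsm2. Every one of the 14 windows held UUU. Since windows were kept by their score against the authors' matrix, their bases are in part set by that selection, and no preference of HuD was tested. The base before the first UUU was C in 8 windows, A in 3 and G in 3, and over 2488 windows on protein coding genes it was C in 41.6%, A in 30.8% and G in 27.7%.

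The Cnot6 windows formed a cluster and a scatter. Of the 8, 6 lay between 431 and 683 nt after the stop codon, and the remaining 2 lay 1752 and 2810 nt after it. The most covered windows, with 242 and 240 reads, started 12 nt apart, so that reads can span both, and had 5 and 3 deletions. Deletions were most numerous at the windows 644 and 2810 nt after the stop codon, with 23 of 92 reads (25.0%) and 17 of 62 reads (27.4%). The 3′ end data place these windows on particular mRNA forms. Cnot6 had 2 counted ends, and 6 of its 8 windows, those from 633 nt onward, lay beyond the nearer one, in RNA that only the longer form carries. The distal end took 78.1% ± 2.66 of the Cnot6 end counts in control cells and 78.7% ± 1.97 in HuD cells (SD, n = 3). Lsm6 differed: its window 193 nt after the stop codon, where all 8 reads carried a deletion, lay beyond the main ends, with 1.2% ± 0.07 of end counts downstream of it in control cells and 1.03% ± 0.09 in HuD cells.

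**Figure D2:**
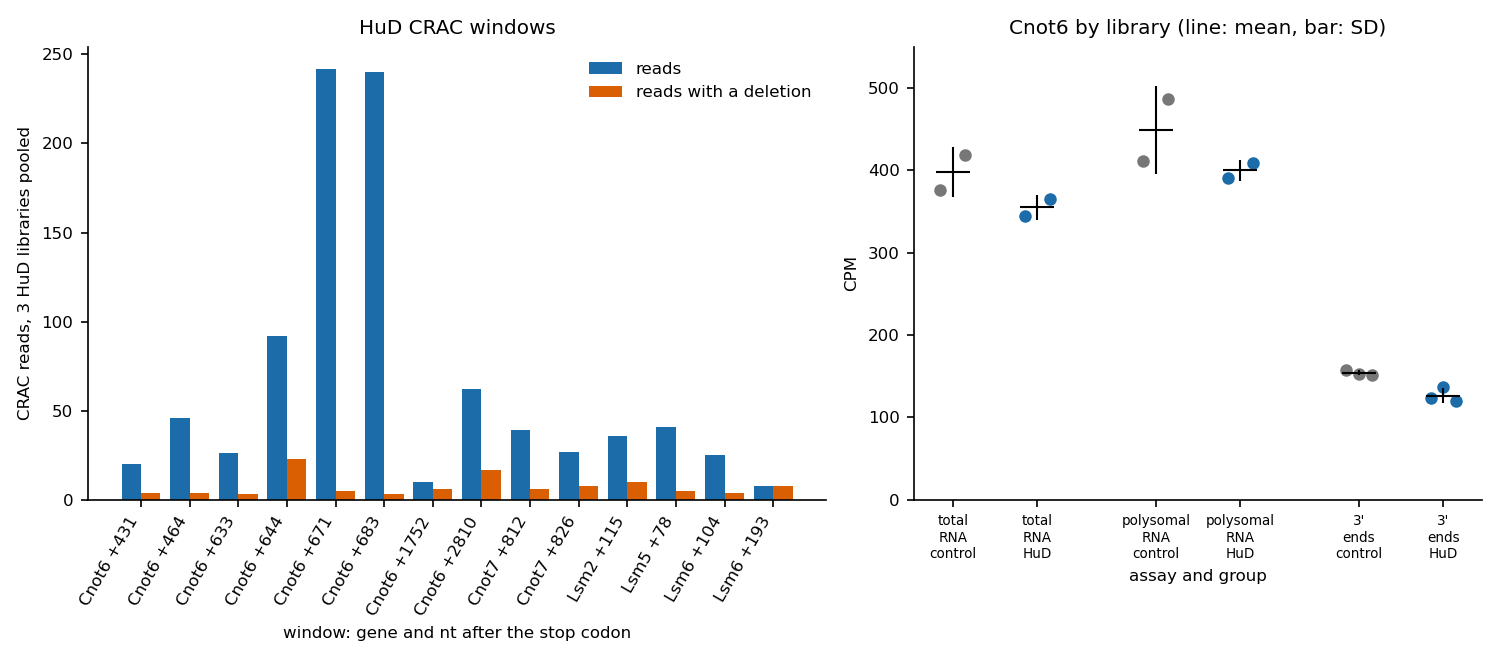
Left, reads and reads with a deletion in the pooled HuD CRAC libraries at each of the 14 windows, named by gene and nt after the stop codon. Right, CPM of Cnot6 in each library of total RNA, polysomal RNA and 3′ ends, with means as lines and SD as bars. The tallest bars are the Cnot6 windows with 242 and 240 reads, and every HuD library of Cnot6 lies below every control library of the same assay.

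Cnot6 mRNA was lower in HuD cells in each assay, by amounts that did not pass the adjustment over all genes. In total RNA it was at 376 and 419 CPM in control cells and at 345 and 366 CPM in HuD cells. In polysomal RNA it was at 412 and 487 CPM in control cells and at 391 and 409 CPM in HuD cells. By 3′ end counts it was at 158, 153 and 152 CPM in control cells and at 123, 137 and 119.5 CPM in HuD cells. The groups did not overlap in any of the assays. The log2 change was -0.16 (SE 0.11) in total RNA, -0.17 (SE 0.11) in polysomal RNA and -0.28 (SE 0.11) in 3′ end counts. The edgeR p for the 3′ ends was 0.0335 and its adjusted p 0.833. With same-numbered 3′ end libraries as a block, p was 0.00427 and the adjusted p 0.0880. Without the block, p was over 0.05 when any 1 of 5 of the 6 libraries was left out, with changes from -0.34 to -0.24, and 0.0214 without HuD replicate 2. Without polysomal control replicate 2, where Cnot6 was highest, the polysomal change was -0.03. The change of its polysome-to-total ratio was -0.003 (SE 0.15), and its levels in RNA-Seq and 3′ end sequencing come from different libraries of the same kind of cells. In bulk RNA, fewer cells of a type and less RNA per cell cannot be told apart.

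The other HuD-bound members had log2 changes in total RNA of -0.17 to 0.04, and Lsm2 was further from 0 in 3′ end counts, at -0.31 (SE 0.29), than Cnot6. Cnot7, a CAF1-type catalytic subunit, was at 139 and 149.6 CPM in total RNA of control cells and at 138 and 159 CPM in HuD cells, so the groups overlapped. In polysomal RNA its HuD libraries, at 172 and 165 CPM, lay above the control libraries, at 156 and 153 CPM, with a log2 change of 0.13 (SE 0.09, edgeR p 0.204, adjusted p 0.969), and 0.12 without polysomal control replicate 2. The LSM ring members Lsm2, Lsm5 and Lsm6 had log2 changes in total RNA of -0.01 (SE 0.14), -0.05 (SE 0.19) and -0.17 (SE 0.11), with p of 0.951, 0.815 and 0.146 in edgeR. Of the 5 bound members, 4 were below 0 in total RNA (median -0.05) and 4 in 3′ end counts (median -0.13). Their polysome-to-total change was above 0 in 4 of 5, with a median of 0.13, and polysomal control replicate 2, with its low LSM values, enters that change.

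In total RNA the decay genes changed little with HuD. No member passed an adjusted p of 0.05 in edgeR or DESeq2, against 0% of the 14906 genes tested in edgeR. At an unadjusted p under 0.05, 1 of 49 members was lower and none higher, against 0.865% of all genes lower and 1.78% higher. The one was Dcps, at 50.6 and 56.0 CPM in control cells and 45.1 and 46.4 CPM in HuD cells. Both HuD libraries lay below both control libraries, with a log2 change of -0.22 (SE 0.08, edgeR p 0.0232, adjusted p 1.00). In DESeq2 the p of Dcps was 0.0624, and no member was below 0.05. In edgeR none was below 0.05 without total control replicate 2 or without either total HuD library, and 4 were without polysomal control replicate 1 (4.73% of all genes) and 3 without polysomal control replicate 2 (4.92%), which enter this comparison through the shared spread. With the replicate number as a block 3 members were below 0.05, all lower (Cnot6, Cnot11 and Dcps), against 6.16% of all genes in either direction and 2.58% lower.

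The members leaned slightly downward, with 29 of 49 below 0 and a median of -0.01. Of all genes, 7649 of 14906 were below 0, with a median of -0.00. Below 0 were 8 of 9 exosome genes (median -0.09, range -0.18 to 0.00) and all 7 LSM ring genes (median -0.05, range -0.18 to -0.01; 6 of 7 with RLE size factors), while both exonucleases were above 0. The change in total RNA also went with exon length, with a Spearman correlation of 0.45 over the 49 members, against 0.06 over 14842 genes, and the part of length in the pattern by role was not tested. The exosome cap subunit Exosc3 was at 29.3 and 32.3 CPM in control cells and 25.5 and 29.0 CPM in HuD cells, a log2 change of -0.18 (SE 0.10, edgeR p 0.113, adjusted p 1.00). Cnot11, a CCR4-NOT subunit that binds CNOT10, had a log2 change of -0.14 (SE 0.08, p 0.118). Among members above 0 the smallest p was that of Xrn1, at 36.2 and 39.3 CPM in control cells and 43.5 and 41.9 CPM in HuD cells, a log2 change of 0.18 (SE 0.12, edgeR p 0.176, adjusted p 1.00), followed by Cnot4 (0.09, p 0.311) and the kinase Smg1 (0.13, p 0.317). HuD libraries lay wholly below control libraries for 16 members (32.7%) and wholly above for 5 (10.2%). The same held for 16.7% and 15.1% of all genes. Of the 16, 6 were exosome genes, 3 CCR4-NOT and 3 LSM ring genes.

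The precision of these libraries bounds the changes. The median SE of a member's log2 change was 0.11 in total RNA, 0.11 in polysomal RNA and 0.17 in 3′ end counts. The 95% confidence interval stayed within 0.5 on either side of 0 for 47 of 49 members in total RNA, for 45 in polysomal RNA and for 18 of 40 in 3′ end counts. It stayed within 1 for every member counted in an assay. A 2-fold change of a member therefore lay outside its interval in each assay that counted it. The polysomal intervals come from the fit with both polysomal control libraries.

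**Figure D3:**
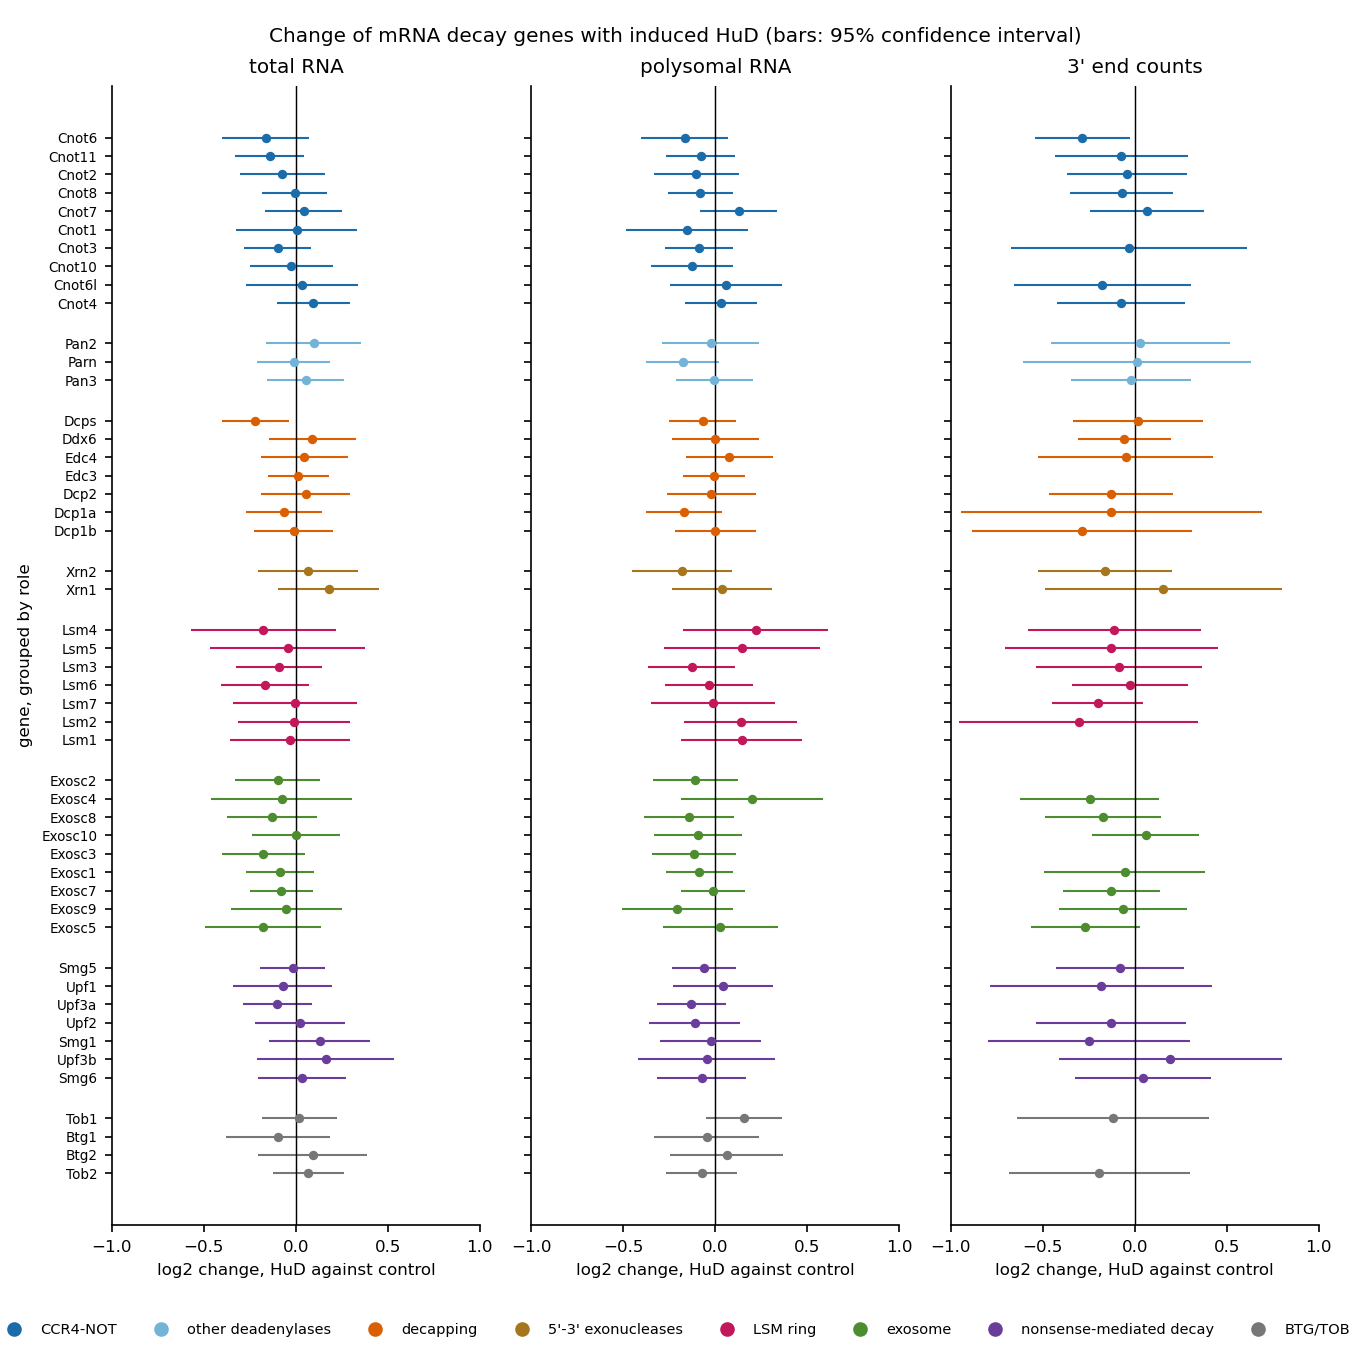
Log2 change of each decay gene between HuD and control cells in total RNA, polysomal RNA and 3′ end counts, with the 95% confidence interval of the edgeR fit as bars and genes grouped by role. Genes without counted ends have no point in the right panel, where 32 of 40 points lie left of 0. Intervals of Dcps in total RNA and of Cnot6 in 3′ end counts exclude 0.

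In polysomal RNA no member passed an adjusted p of 0.05 in edgeR or DESeq2, against 0% of all genes in edgeR. None was below an unadjusted p of 0.05 in either tool, against 2.29% of all genes higher, 1.89% lower and 4.17% in either direction in edgeR. With the replicate number as a block 2 members were, both lower (Cnot6 and Exosc8), against 9.3% of all genes and 4.98% lower. The median over the members was -0.05 with 34 of 49 below 0, and without polysomal control replicate 2 it was -0.01 with 25 of 49. The median of all genes was -0.01 in the fit with every library, with 7694 of 14906 below 0. Parn, a poly(A)-specific ribonuclease, was at 48.0 and 55.9 CPM in control cells and at 46.8 and 44.9 CPM in HuD cells, with a log2 change of -0.18 (SE 0.09, edgeR p 0.0736, adjusted p 0.969), and -0.06 without polysomal control replicate 2. Dcp1a was at 37.5 and 43.5 CPM in control cells and at 35.6 and 36.3 CPM in HuD cells, with a log2 change of -0.17 (SE 0.09, p 0.0968 in edgeR). Without polysomal control replicate 2 it was -0.05 (edgeR p 0.556), and without replicate 1 it was -0.28. The antiproliferative adaptor Tob1 lay higher, at 24.6 and 23.4 CPM in control cells and at 28.1 and 25.3 CPM in HuD cells, a log2 change of 0.15 (SE 0.09, edgeR p 0.128), and 0.13 without polysomal control replicate 2. HuD libraries lay wholly below control libraries for 11 members (22.4%), against 14.6% of all genes, and wholly above for 2 (4.08%), against 14.1%.

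For the LSM ring the polysomal change depended on which control library was read. Lsm4 was at 249 and 157 CPM in polysomal RNA of control cells and at 245.5 and 229 CPM in HuD cells. Lsm1 was at 62.7 and 43.1 CPM in control cells and at 57.6 and 59.8 CPM in HuD cells. In both, and in Lsm5 at 50.6 and 32.0 against 47.4 and 44.3 CPM, the HuD libraries fell between the 2 control libraries. The median log2 change of the ring was 0.14, 0.28 without polysomal control replicate 1 and -0.13 without polysomal control replicate 2. Without replicate 1, 17 members were below an unadjusted p of 0.05, against 21.9% of all genes, and 4 passed an adjusted p of 0.05, against 2.49%: Lsm4 (0.59), Exosc4 (0.55) and Lsm1 (0.44) higher and Exosc9 (-0.42) lower. Without replicate 2, 4 members were below 0.05, against 5.37% of all genes, 0 passed the adjusted p, and the log2 changes of these genes were -0.06 for Lsm4, -0.07 for Exosc4, -0.09 for Lsm1 and 0.04 for Exosc9. Of the exons of Exosc9, 10.8% overlap Ccna2 on the other strand, so its counts are uncertain.

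**Figure D4:**
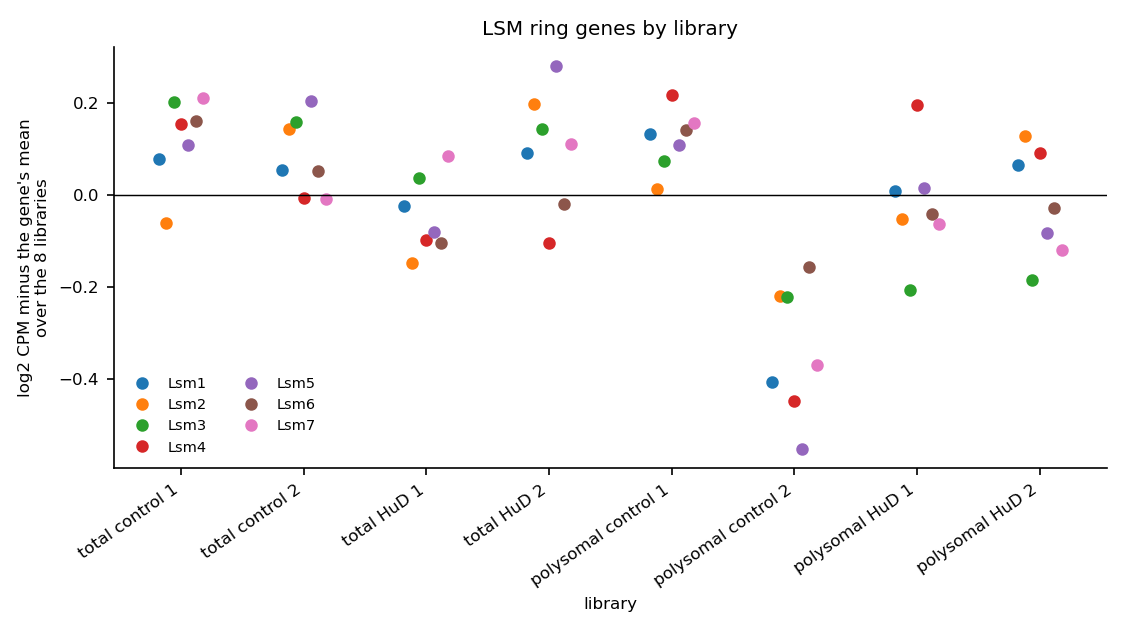
Log2 CPM of the 7 LSM ring genes in each RNA-Seq and POL-Seq library, minus the mean of the gene over the 8 libraries, with 1 point per gene. All 7 genes are lowest in polysomal control replicate 2, and the other 7 libraries scatter around 0.

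Translation efficiency is the level of a gene in polysomal RNA over its level in total RNA, and the test of its change with HuD was an interaction term. No member passed an adjusted p of 0.05, against 0% of all genes, and 0 members were below an unadjusted p of 0.05 in edgeR or DESeq2. In edgeR 0.409% of all genes were higher, 0.57% lower and 0.979% either. With the block 0 members were again below 0.05, against 2.43% of all genes and 1.34% lower. The smallest p was that of Lsm4, with a log2 change of 0.40 (SE 0.25, edgeR p 0.142, adjusted p 1.00). It was 0.77 without polysomal control replicate 1 (adjusted p 0.0391) and 0.11 without replicate 2 (adjusted p 1.00). Dcps (0.15, p 0.217) and the exosome subunit Exosc4 (0.28, p 0.282) followed in the upward direction. In the downward direction Xrn2 (-0.25, p 0.181), Parn (-0.17, p 0.215) and Tob2 (-0.14, p 0.266) came first. Without polysomal control replicate 2 these 5 changes were 0.18 for Dcps, 0.01 for Exosc4, -0.06 for Xrn2, -0.05 for Parn and -0.18 for Tob2. The ring's median was 0.15 and became -0.06 without polysomal control replicate 2, and members above 0 went from 20 to 33 of 49. Without replicate 1, 12 members were below an unadjusted p of 0.05 and 1 passed the adjusted p, against 13.6% and 0.315% of all genes. Exosc4 is uncertain in any case, since 19.8% of its exons overlap Oplah on the other strand, and whether counting used strand is not given in the sources used here.

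The polysome-to-total ratio was also read without induced HuD. In control cells, no member passed an adjusted p of 0.05 for polysomal against total RNA, while 0.174% of all genes did. At an unadjusted p under 0.05, 3 members were higher on polysomes and 3 lower, against 4.45% and 6.25% of all genes. Polysomal libraries lay wholly above total libraries for 13 members (26.5%), against 18.9% of all genes, and wholly below for 9 (18.4%), against 20.1%. Tob1 was at 30.5 and 30.3 CPM in total RNA and at 24.6 and 23.4 CPM in polysomal RNA, with both polysomal libraries below both total libraries. Its log2 ratio was -0.34 (SE 0.09, edgeR p 0.00460, adjusted p 0.382). Dcp1b was at 21.3 and 19.95 CPM in total RNA and at 17.3 and 16.9 CPM on polysomes, a log2 ratio of -0.27 (SE 0.10, edgeR p 0.0206). Lsm3 had a log2 ratio of -0.25 (SE 0.10, edgeR p 0.0417).

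On the upper side stood the kinase Smg1, which phosphorylates UPF1, at 126 and 151 CPM in total RNA and at 154 and 189.9 CPM on polysomes, a log2 ratio of 0.31 (SE 0.12, edgeR p 0.0304). Xrn1 (0.29, SE 0.12, p 0.0414) and Upf2, the scaffold between UPF1 and UPF3 (0.27, SE 0.11, p 0.0341), were close to it, and for all 3 both polysomal libraries lay above both total libraries. By role, the median log2 ratio was 0.22 for the exonucleases, 0.17 for nonsense-mediated decay, 0.11 for CCR4-NOT (9 of 10 above 0), -0.17 for the LSM ring (0 of 7 above 0) and -0.20 for BTG/TOB (0 of 4 above 0). The median of all members was 0.01, like that of all genes.

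This order moved with 1 library and with length, and no test between roles was run. Without polysomal control replicate 2, the log2 ratio was -0.31 for Tob1, -0.26 for Dcp1b, -0.12 for Lsm3, 0.15 for Smg1, 0.11 for Upf2 and 0.07 for Xrn1. The medians by role were 0.03 for the LSM ring (4 of 7 above 0), 0.06 for nonsense-mediated decay, 0.03 for CCR4-NOT and -0.17 for BTG/TOB (1 of 4 above 0). Without polysomal control replicate 1 they were -0.47, 0.22, 0.23 and -0.31. Members below an unadjusted p of 0.05 numbered 3 without polysomal control replicate 2 (5.04% of all genes), 1 without total control replicate 1 (3.89%) and 27 without polysomal control replicate 1 (32.2%). Of the 27, 16 passed an adjusted p of 0.05, against 14.4% of all genes. With the replicate number as a block 15 members were below 0.05, 6 of them lower, against 20.6% of all genes and 9.92% lower, and none passed the adjusted p, against 0.275%. Across the 49 members the log2 ratio and exon length had a Spearman correlation of 0.52, and across all 14842 genes 0.36. These are descriptions over genes that share libraries. Without polysomal control replicate 2 they were 0.14 over the members and 0.16 over 14860 genes.

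**Figure D5:**
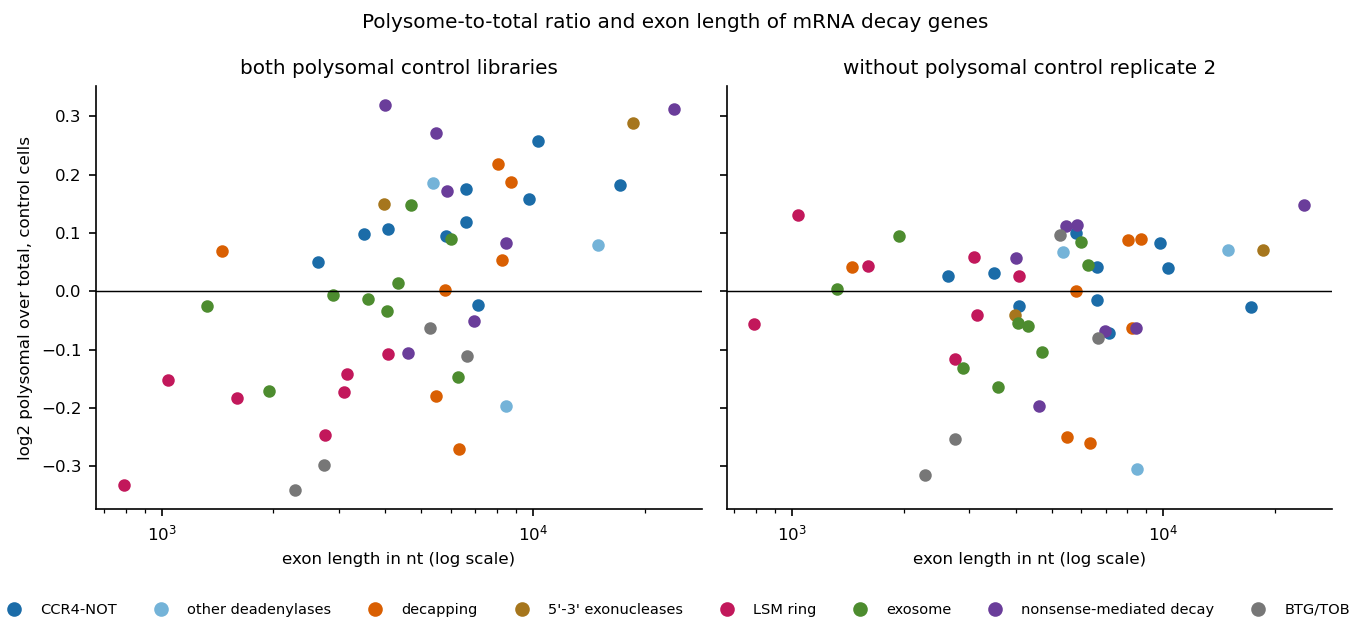
Log2 ratio of polysomal over total RNA in control cells against exon length on a log axis, with 1 point per decay gene coloured by role, from both polysomal control libraries (left) and without replicate 2 (right). The LSM ring genes lie below 0 at the short end on the left, and 4 of 7 lie above 0 on the right.

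By 3′ end counts, most decay genes with counted ends were slightly lower in HuD cells. Ends were counted for 40 members, and no counted ends were found for Cnot1, Cnot10, Edc3, Lsm1, Exosc2, Exosc3, Upf3a, Btg1 and Btg2. Of the 40, 32 were below 0, with a median log2 change of -0.08, against 4802 of 9621 genes below 0 and a median of 0.00. The 40 genes share the same 6 libraries, so this tally is a description over genes and not a count of replicates. This was so for all 6 LSM ring genes (median -0.12), 6 of 7 exosome genes (median -0.13) and 7 of 8 CCR4-NOT genes (median -0.07). At an unadjusted p under 0.05, 1 member was lower (Cnot6) and none higher, against 3% and 2.87% of all genes and 5.87% in either direction, and no member passed an adjusted p of 0.05 in edgeR, against 0.052% of all genes.

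The exosome subunit Exosc5 was at 163, 194 and 154 CPM in control cells and at 136, 153 and 135 CPM in HuD cells, with no overlap and a log2 change of -0.27 (SE 0.13, edgeR p 0.0691). Lsm7 was at 378, 409 and 379 CPM in control cells and at 322, 334 and 359 CPM in HuD cells, again with no overlap, and its log2 change was -0.20 (SE 0.11, edgeR p 0.0993). With Cnot6, these were the 3 members (7.5%) whose HuD libraries all lay below their control libraries, against 5.81% of all genes, and none lay wholly above, against 6.23%. Members above 0 were led by Upf3b (0.19, p 0.487), Xrn1 (0.16, p 0.598) and Cnot7 (0.07, p 0.634). Of the exons of Exosc5, 5.66% overlap Tmem91 on the other strand.

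Same-numbered 3′ end libraries deviated together, so the members were also read within pairs. In all 3 pairs, HuD was below control for 14 of 40 members (35%), against 20.4% of all genes, and above control for 2 (5%), Cnot7 and Upf3b, against 20.1%. With the pairs as a block, 6 members were below an unadjusted p of 0.05, all of them lower: Cnot6, Lsm2, Lsm7, Exosc4, Exosc5 and Exosc8. By the same test 10.1% of all genes were lower and 18.7% were below 0.05 in either direction, and no member passed an adjusted p of 0.05, against 2.26% of all genes. Lsm2, a subunit shared by the cytoplasmic and nuclear rings, was at 209, 328 and 216 CPM in control cells and at 141, 303 and 166 CPM in HuD cells, so the groups overlapped while every pair fell. These values sum 3 ends within 20 nt that count the same reads. With the ends merged, Lsm2 was at 90.0, 141 and 92.5 CPM in control cells and at 60.4, 130 and 71.0 CPM in HuD cells. From the unmerged counts its log2 change was -0.31 (SE 0.29, edgeR p 0.316), and with the block p was 0.00239 and the adjusted p 0.0691. Without HuD replicate 2, 7 members were below 0.05 in the unpaired fit, against 13.3% of all genes, and without any other of the 6 libraries 0 were.

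Changes in the 3′ end libraries and in RNA-Seq come from separate libraries and share no control sample. For 27 of 40 members (67.5%) the sign was the same, in 21 cases lower in both and in 6 higher in both, against 55.9% of 9399 genes measured in both. The Spearman correlation of the log2 changes was 0.20 over the 40 members and 0.19 over the 9399 genes.

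HuD did not detectably shift which 3′ end these genes used. After ends within 20 nt of each other were merged, because they count the same reads, 8 members had more than 1 end. Lsm6 had the smallest Simes p over its ends, at 0.420 before merging and 0.436 after it, with an adjusted p of 1.00 in edgeR. Its main ends took 55.0% ± 1.63 and 43.8% ± 1.62 of counts in control cells and 56.6% ± 1.96 and 42.4% ± 1.95 in HuD cells (SD, n = 3). The decapping enzyme Dcp2 followed with an edgeR p of 0.698. Its distal end took 67.1% ± 1.52 in control cells and 72.2% ± 4.39 in HuD cells, and the groups overlapped. For the deadenylase Cnot6l, p was 0.802 and the distal end took 46.5% ± 5.91 in control cells and 43.6% ± 11 in HuD cells. No member was below an unadjusted p of 0.05, against 0.151% of the 3317 genes with more than 1 listed end and 0.488% after merging. An adjusted p under 0.05 was found for 0.0301% of the 3317, with and without the block, and for 0.0697% of genes after merging with the block. In a simulation of this test on unmerged ends, 28% of genes with a log2 shift of 1 were recovered. It drew each end separately, whereas ends within 20 nt share reads in the data. Recovery with merged ends was not simulated.

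Other genes of mRNA decay, a list of 47 of which 46 were in the count table, were read beside the members. No gene of that list passed an adjusted p of 0.05 in any comparison. In total RNA 1 of 46 was below an unadjusted p of 0.05 in edgeR and higher, against 1.78% of all genes higher. In polysomal RNA 1 was higher and 1 lower, against 2.29% and 1.89%. For translation efficiency none was, against 0.979% in either direction, and of the 36 with counted ends none was, against 5.87%. For the control polysome-to-total ratio 3 were higher and 1 lower, against 4.45% and 6.25%. The gene that was higher with HuD in both total and polysomal RNA was Rc3h2, which encodes Roquin-2, an RNA-binding protein that recruits CCR4-NOT. Its log2 change was 0.24 (SE 0.09, edgeR p 0.0232) in total RNA, 0.23 (SE 0.09, p 0.0265) in polysomal RNA and 0.26 (SE 0.17, p 0.168) in 3′ end counts, so Rc3h2 and Cnot6 lay on opposite sides of 0 in all 3. By CRAC, 8 of the 46 had a window (17.4%), against 9.9% of the protein coding genes in the count table. The most covered genes of that list were Rc3h2 and Lsm8, with 234 reads each, below the 738 of Cnot6. Lsm8, which replaces LSM1 in the nuclear ring, had log2 changes of -0.16 (p 0.0869), -0.13 (p 0.156) and -0.23 (p 0.284) in total RNA, polysomal RNA and 3′ end counts by edgeR. For the genes of this list, Rc3h2 included, polysomal changes without polysomal control replicate 2 are not given.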

How the data were processed

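RNA-Seq and POL-Seq (2 libraries per group) were deposited by the authors as counts of reads per gene, from STAR 2.5.3a on GRCm38, without normalization. The 3′ ends (3 per group) were deposited as counts of reads starting within 10 nt of known polyadenylation sites, and identical ends of a gene were used once. Counts per gene sum its ends without merging, unless merging is stated. Reads at ends within 20 nt of each other can therefore count more than once. For CRAC, the authors aligned reads with TopHat2 2.0.14, pooled the 3 replicates and deposited the coverage of each window as a signal in reads, the count of reads with a deletion, a p-value that combines coverage and deletions, and a score against their positional weight matrix. Printed positions are those where the listed motif matched GENCODE vM21 transcripts of the same build, -1 or 2 nt from the listed ones for the members.

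Tests on counts used edgeR 4.0.16 under R 4.3.3 (TMM, filterByExpr, quasi-likelihood test, 1 mean per group, Benjamini-Hochberg over all genes tested), with a call at an adjusted p under 0.05. All 8 RNA-Seq and POL-Seq libraries shared a fit. The lowest and highest numbers of counts per library are given in the report. The members and lists, and the rule for naming genes, were chosen with earlier results of these data known. Named were Elavl4, members with a CRAC window, the 3 members with the smallest p in each direction and comparison, the highest and lowest level of each role, paralog pairs and the 3 smallest p of site usage, and genes called when a library was left out were added after their values were seen. Replicates are biological per the design text. Same-numbered 3′ end libraries deviated together (r = 0.400, 0.657 and 0.515), so their number was also used as a block. Alternatives were size factors (RLE), no filter, DESeq2 1.42.0, the block, leaving out each library and, for ends, merging within 20 nt, the latter chosen after seeing the data. On simulated counts, 93% of genes with a log2 change of 1 in total RNA, 91% in polysomal RNA, 80% for translation efficiency and 75% in 3′ end counts were recovered. These counts had no shift of a library with exon length, and many genes were changed at once, which makes an adjusted p under 0.05 easier to reach. In the data no gene was called in total RNA, and Elavl4, with a log2 change of 1.35, had an adjusted p of 0.0866 in edgeR. Recovery in the data may therefore be lower.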

Additional observations from a re-analysis of the deposited data

How the results depend on the processing

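Counts of members below an unadjusted p of 0.05 moved in several settings. In total RNA the 1 became 0 by DESeq2 and 3 with the replicate block, and 0 to 4 when a library was left out. In polysomal RNA the 0 became 2 with the block and 0 to 17 with a library left out, for translation efficiency 0 to 12, and for the control polysome-to-total ratio the 6 became 15 with the block, 2 in a fit to the 4 libraries compared and 1 to 27 with a library left out. For 3′ end counts the 1 became 6 with the block, 6 with merged ends and the block, and 0 to 7 with a library left out. Members past an adjusted p of 0.05 numbered 0 in every comparison and setting except that leaving out polysomal control replicate 1 gave 4 in polysomal RNA, 1 for translation efficiency and 16 for the control ratio. The cause was not tested. RNA-Seq and POL-Seq numbers had only 2 values, with correlations of deviations of 0.188 to 0.387, so that they may share only a number. Of the 14 CRAC windows, 3 had a combined p-value of the authors under 0.05, and Cnot6 held 80.7% of reads but 61.3% of deletions. Leaving out polysomal control replicate 2 turned the sign of several members in polysomal RNA, among them Lsm1, Exosc4 and Exosc9. With single libraries left out, log2 changes ranged from -0.065 to 0.59 for Lsm4 in polysomal RNA and, in 3′ end counts, from -0.076 to 0.43 for Xrn1, from -0.027 to 0.16 for Cnot7 and from -0.062 to 0.42 for Upf3b. RLE size factors and no filter changed no count by over 1.5 times. Recovery of changes smaller than 2-fold was not simulated.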
